A study of Homo sapiens with 6 samples.

Results

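The nuclear-encoded subunits of the mitochondrial respiratory chain were described in total RNA-seq of SEM, an established human cell line of B-lineage acute lymphoblastic leukemia. Members were the protein-coding rows of the deposited gene table whose symbols begin with NDUFA, NDUFB, NDUFC, NDUFS, NDUFV, SDHA to SDHD, UQCR, COX4 to COX8 or ATP5, without the assembly factors NDUFAF and SDHAF. This rule, which used names and no measured value, found 94 of 57820 genes, carrying 90 distinct symbols. Of these rows, 83 passed the expression filter (at least 1 CPM, counts scaled to library size, in any library) and were among the 14044 genes tested. By complex, the rows tested were 38 of 40 for complex I, 4 of 5 for complex II, 9 of 9 for complex III, 14 of 20 for complex IV and 16 of 18 for complex V. ATP5S and ATP5SL carry an ATP5 symbol but are not stable subunits of the synthase, and were kept apart. Among the tested rows 75 are standard subunits, once these 2 genes, 3 read-through loci, a retrocopy, the rare isoform NDUFA4L2 and the supercomplex factor COX7A2L are set aside.

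Both groups, CTCF-WT and CTCF-dRBR, had 3 libraries and derive from SEM cells in which the endogenous chromatin factor CTCF carries a miniAID-mClover3 tag and the plant protein OsTIR1(F74G) is present. In both, the auxin analog 5-Ph-IAA was given for 24 h to degrade the tagged CTCF, and 1 µg/mL doxycycline was added after 6 h and kept for 18 h. Doxycycline induces HA-tagged CTCF, as the wild-type protein in CTCF-WT per the methods and, from a TRE3G promoter, without its RNA-binding region (RBR) in CTCF-dRBR. For CTCF-WT, the labels mention only the tagged endogenous CTCF. Each group comes from its own engineered line, so line and construct cannot be told apart, and nothing states that the 3 replicates were separate cultures, so p-values measure the spread between these libraries. The comparison asks whether transcription differs between cells carrying either form of CTCF.

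Complex I oxidizes NADH, complex II (succinate dehydrogenase) oxidizes succinate as part of the citric acid cycle, and both pass electrons to ubiquinone. Complex III carries the electrons on to cytochrome c and complex IV (cytochrome c oxidase) to oxygen. Complexes I, III and IV pump protons across the inner mitochondrial membrane, and complex V (ATP synthase) uses the gradient to make ATP. The mitochondrial genome encodes part of complexes I, III, IV and V, and the nucleus encodes all of complex II and the remaining subunits, which are imported.

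CTCF itself was at 210, 211 and 249 CPM in CTCF-WT and at 273, 264 and 252 CPM in CTCF-dRBR. The groups did not overlap, and the log2 fold change was 0.24 ± 0.10 (SE, adjusted p = 0.202), but reads of the endogenous and the induced transcript were not separated, so this does not check the constructs. Library totals were 51732177 to 53166735 counts in CTCF-WT and 30034505 to 50457168 in CTCF-dRBR. CTCF-dRBR replicate 1, with the lowest total, stood apart, since its Spearman correlation across genes with the other libraries was 0.913 to 0.968, against 0.971 to 0.997 between the rest. Of 10 B-lineage markers 8 were above 1 TPM (transcript abundance scaled to a common total per library) in every library, DNTT was between 0.02 and 0.12 TPM and BLNK below 1. The 4 T-cell markers summed to 0.57 TPM or less, the 2 erythroid to 0.08, the 2 fibroblast to 0.53 and the 5 myeloid to between 4.18 and 6.70, of which LYZ and CSF1R were above 1 TPM everywhere.

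Levels of the respiratory chain subunits were mostly lower in CTCF-dRBR, but no single member passed the test. The median log2 fold change of the 83 members was −0.43, against −0.01 over all genes tested, and 69 members had a negative value, where 50.6% of all genes did. On log2(TPM + 1) the members' median was positive, 0.15, but the median of all genes was then 0.40. Among the 83 members, as among all genes (0.0%), 0 had an adjusted p under 0.05 by limma-voom, and the smallest among the members was 0.0991. At an unadjusted p under 0.05, 37 members (44.6%) were lower and 0 higher, where 12.8% of all genes tested were lower and 12.6% higher. edgeR's quasi-likelihood test gave 0 members past the threshold and 34 lower at an unadjusted p under 0.05 (11.0% of all genes), and DESeq2 called 19 members, all lower (6.14% of all genes tested were called lower and 5.38% higher). The 37 became 17 without CTCF-WT replicate 1 and also without CTCF-WT replicate 2, 49 when CTCF-dRBR replicate 1 was left out and 24 when CTCF-dRBR replicate 2 was. Of all genes, 807 of 14008, 779 of 14022, 2278 of 13731 and 945 of 14002 were then lower, in the same order. With all 6 libraries 1801 of 14044 were. Below a log2 fold change of −1 were 13 members, against 5.5% of all genes. With sample quality weights 66 members passed the adjusted threshold, 62 lower and 4 higher, and so did most genes, 35.8% of all lower and 32.5% higher. On log2(TPM + 1), 2 members were lower and 2 higher at an unadjusted p under 0.05, against 2.02% and 26.8% of all genes. In 47 members the 3 CTCF-dRBR values were all below the 3 CTCF-WT values, which held for 17.5% of all genes, and in 0 members were they all above (20.0%).

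**Figure D1:**
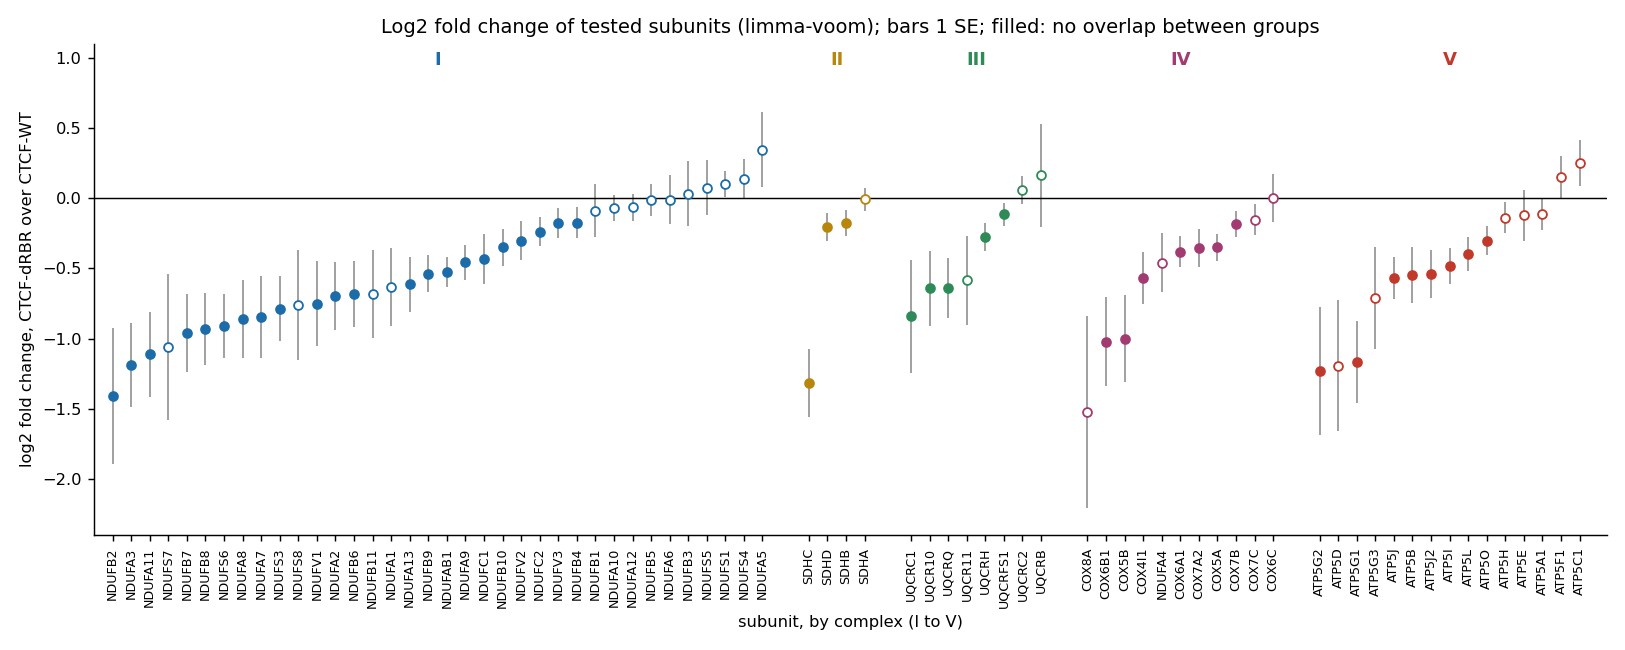
Log2 fold change (CTCF-dRBR over CTCF-WT, limma-voom) of 74 standard subunits tested, ordered within each complex, with bars of 1 SE. Filled points mark subunits whose 3 CTCF-dRBR values all lie below the 3 CTCF-WT values; fold changes run from −1.52 (COX8A) to 0.35 (NDUFA5), and on log2(TPM + 1) the members' median is 0.15, against 0.40 for all genes.

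The summed share of the members was compared next, with the TPM of protein-coding genes as the whole. Members held 2.24%, 2.21% and 2.03% of protein-coding TPM in CTCF-WT and 1.75%, 1.83% and 1.88% in CTCF-dRBR. Each CTCF-dRBR library lay below each CTCF-WT library, with means of 2.16% ± 0.11 and 1.82% ± 0.06 (SD, n = 3) and an exact permutation p of 0.1, the smallest that 3 against 3 can give. Of protein-coding counts, the share was 1.12%, 1.09% and 1.01% in CTCF-WT and 0.839%, 0.895% and 0.931% in CTCF-dRBR, again without overlap. The shares of complexes I, IV and V in protein-coding TPM did not overlap either, and relative to the CTCF-WT mean the CTCF-dRBR mean differed by −19.0%, −17.3% and −16.9%. For complex III the groups overlapped, with 0.262%, 0.265% and 0.247% in CTCF-WT against 0.268%, 0.224% and 0.236% in CTCF-dRBR (exact permutation p = 0.4). Complex II depended on the unit: its mean share of TPM was 0.046% ± 0.003 in CTCF-WT and 0.051% ± 0.004 in CTCF-dRBR, with overlap (n = 3, exact permutation p = 0.2), while its summed CPM of 370, 382 and 367 in CTCF-WT was above the 325, 337 and 345 of CTCF-dRBR.

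**Figure D2:**
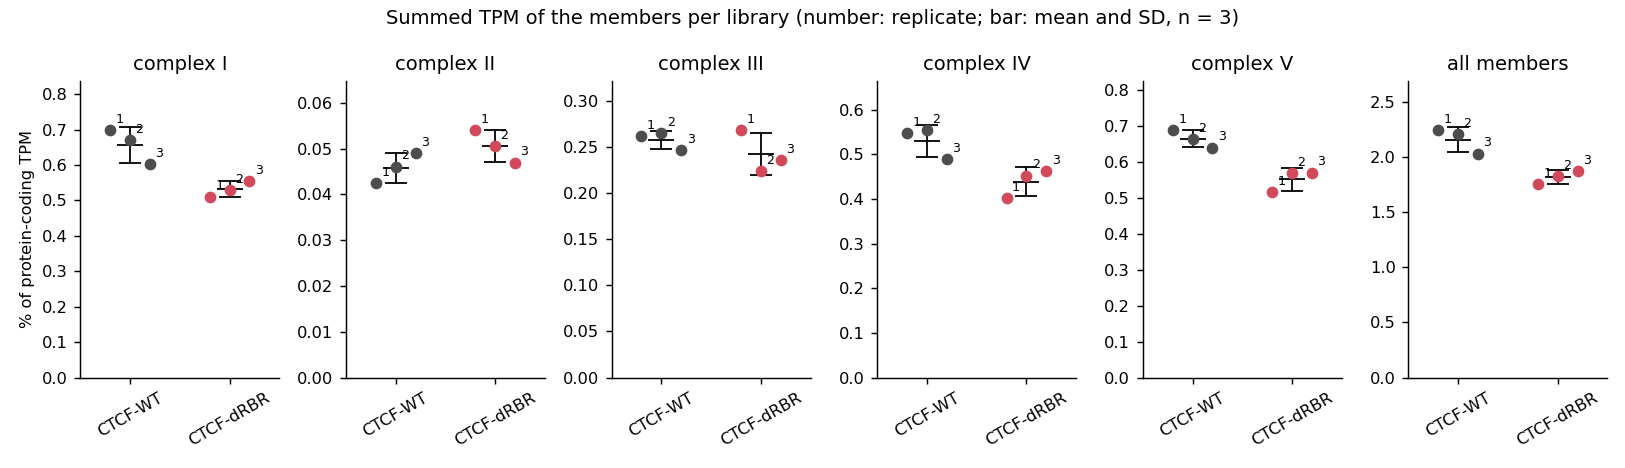
Share of protein-coding TPM (%) held by each complex and by all members in every library, with replicate numbers, and mean and SD (n = 3 per group). CTCF-dRBR libraries sit between 1.75% and 1.88% for all members, below the 2.03% to 2.24% of CTCF-WT, while the groups overlap for complexes II and III.

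Many genes of this set are known to have promoter elements for nuclear respiratory factor 1 (NRF1), for the ETS factor GABP (also called NRF2), for YY1 and for SP1. RefSeq promoters (GRCh38.p14, 250 bases before to 50 after the start) were found for 62 of the 75 standard subunits and searched on both strands for the letters of these motifs and of a CTCF core, which can overlap each other. The palindromic NRF1 consensus was in 15 of 62 promoters (24.2%), against 12.4% of 8833 promoters of protein-coding genes tested and 6.28% of all 27305 promoters. The ETS letters CCGGAAG were in 30.6%, 20.5% and 10.7% of the same 3 sets, the YY1 consensus in 17.7%, 5.20% and 2.27%, and the SP1 letters GGGCGG in 59.7%, 70.2% and 44.6%. A core of the CTCF motif was in 2 of 62 promoters (3.23%), against 3.03% and 2.49%. These are letter matches, not binding sites, and no binding was analysed here.

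For each complex, the 250 bases before the start of 1 subunit are shown so that these elements can be seen in place. Capitals mark the NRF1 or the ETS letters on either strand. Each subunit shown has the smallest unadjusted p among those considered whose stretch holds these letters. Some subunits were left out of the choice, so the subunits shown need not have the smallest p of all that hold them. They are NDUFA3 at chr19:54102605-54102854 (plus strand), SDHD at chr11:112086623-112086872 (plus), UQCRQ at chr5:132866392-132866641 (plus), COX6A1 at chr12:120437863-120438112 (plus) and ATP5J, now named ATP5PF, at chr21:25735055-25735304 (minus), all in GRCh38.p14.
NDUFA3: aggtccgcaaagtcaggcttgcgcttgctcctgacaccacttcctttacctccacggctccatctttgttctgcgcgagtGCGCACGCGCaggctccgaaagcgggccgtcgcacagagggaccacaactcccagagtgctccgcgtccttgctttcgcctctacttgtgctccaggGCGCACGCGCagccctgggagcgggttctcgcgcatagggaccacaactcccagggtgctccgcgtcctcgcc
SDHD: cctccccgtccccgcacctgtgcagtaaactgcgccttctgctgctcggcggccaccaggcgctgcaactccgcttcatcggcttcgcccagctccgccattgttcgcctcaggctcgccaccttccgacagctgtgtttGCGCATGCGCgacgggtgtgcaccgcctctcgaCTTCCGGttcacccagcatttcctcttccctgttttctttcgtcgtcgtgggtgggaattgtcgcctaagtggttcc
UQCRQ: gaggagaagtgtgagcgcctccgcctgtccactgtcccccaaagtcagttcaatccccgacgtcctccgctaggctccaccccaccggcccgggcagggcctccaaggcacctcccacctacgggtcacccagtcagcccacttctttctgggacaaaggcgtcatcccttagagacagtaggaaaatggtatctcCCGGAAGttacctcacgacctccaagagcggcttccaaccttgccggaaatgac
COX6A1: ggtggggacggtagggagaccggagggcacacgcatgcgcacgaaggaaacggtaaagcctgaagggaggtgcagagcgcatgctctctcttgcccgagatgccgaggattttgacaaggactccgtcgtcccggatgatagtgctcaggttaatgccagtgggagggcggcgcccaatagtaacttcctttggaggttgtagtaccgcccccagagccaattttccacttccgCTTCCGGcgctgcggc
ATP5J: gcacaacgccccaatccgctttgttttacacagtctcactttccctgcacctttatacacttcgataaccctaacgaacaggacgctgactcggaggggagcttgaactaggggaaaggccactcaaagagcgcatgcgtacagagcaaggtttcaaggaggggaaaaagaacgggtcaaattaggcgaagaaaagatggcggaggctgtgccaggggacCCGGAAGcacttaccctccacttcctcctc

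NDUFA3 held the NRF1 letters at 2 places, 170 to 161 and 73 to 64 bases before the start, and SDHD held them once, followed by the ETS letters on the minus strand. UQCRQ, COX6A1 and ATP5J each held the ETS letters once, within 54 bases of the start. ATP5J has the gene GABPA, which encodes the DNA-binding subunit of GABP, on its opposite strand.

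In complex I, 18 of 38 rows were lower at an unadjusted p under 0.05 (12.8% of all genes) and 0 were higher (12.6%). The median log2 fold change was −0.53 (0.06 on log2(TPM + 1), against 0.40 for all genes). The 18 became 9 without CTCF-WT replicate 1, 10 without CTCF-WT replicate 2 and 11 without CTCF-dRBR replicate 2. The count over all genes fell too, from 1801 of 14044 to 807 of 14008, 779 of 14022 and 945 of 14002. Its 7 nuclear core subunits, which carry the redox centers, had a median of −0.75, which was −0.17 with the GC trend removed and −0.33 when CTCF-dRBR replicate 1 was left out. In the NADH-oxidizing arm, NDUFV1 binds the flavin cofactor and NADH, and NDUFV2 and NDUFS1 carry iron-sulfur clusters. NDUFV1 was at 138, 137 and 110 CPM in CTCF-WT and at 45.7, 81.4 and 109 CPM in CTCF-dRBR (log2 fold change −0.75 ± 0.30 SE, adjusted p = 0.191). The groups did not overlap, but the highest CTCF-dRBR value lay next to the lowest CTCF-WT value. NDUFV2, at 131, 139 and 151 against 92.8, 123 and 126 CPM, was also without overlap, with a log2 fold change of −0.30 ± 0.14 (adjusted p = 0.222). NDUFS1, the largest subunit of complex I, was at 222, 239 and 249 against 267, 255 and 241 CPM, with overlapping groups and a log2 fold change of 0.10 ± 0.09 (adjusted p = 0.441).

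In the quinone-reducing arm of complex I, NDUFS3, NDUFS7 and NDUFS8 belong to the part that leads electrons to ubiquinone. NDUFS3 had 61.8, 61.4 and 50.9 CPM in CTCF-WT and 22.1, 37.1 and 41.6 CPM in CTCF-dRBR (log2 fold change −0.79 ± 0.23, adjusted p = 0.147). Its groups did not overlap. NDUFS7, which carries the last cluster before the quinone, had the most negative value of the core, −1.06 ± 0.52 (adjusted p = 0.229), but its 37.8, 37.9 and 26.4 CPM in CTCF-WT overlapped with the 5.99, 19.3 and 30.2 CPM of CTCF-dRBR. Without CTCF-dRBR replicate 1 it was −0.48 and with the GC trend removed −0.17, and NDUFS3 was then lowest of the core, at −0.56 in both. NDUFS8 overlapped as well, at 39.6, 37.1 and 30.5 against 9.76, 25.7 and 31.3 CPM (−0.76 ± 0.39, adjusted p = 0.241). In both overlapping genes CTCF-dRBR replicate 1 was lowest and replicate 3 lay within the CTCF-WT range.

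The accessory subunits of complex I surround the core and many are needed for its assembly and stability. Of 30 tested, 16 were lower at an unadjusted p under 0.05 (12.8% of all genes) and 19 were lower without overlap (17.5%). Their median of −0.49 was −0.33 with the GC trend removed and −0.38 when CTCF-dRBR replicate 1 was left out. NDUFAB1, the mitochondrial acyl carrier protein, was at 61.3, 62.2 and 53.3 CPM in CTCF-WT and at 40.3, 39.5 and 42.9 CPM in CTCF-dRBR (log2 fold change −0.52 ± 0.11, adjusted p = 0.108). Its 3 CTCF-dRBR values lay close together, CTCF-dRBR replicate 1 included. NDUFB9 had 165, 150 and 126 against 93.1, 99.5 and 109 CPM (−0.54 ± 0.13, adjusted p = 0.127), and NDUFS6, a zinc-binding subunit, had 53.8, 44.5 and 35.1 against 25.2, 18.3 and 27.8 CPM (−0.91 ± 0.23, adjusted p = 0.130). Both were without overlap, as was NDUFB2, a membrane arm subunit at 61.5, 58.7 and 43.5 against 7.59, 26.4 and 34.2 CPM. NDUFB2 had the most negative value of the standard subunits of complex I, −1.41 ± 0.49 (adjusted p = 0.165), followed by NDUFA3 (−1.19 ± 0.30) and NDUFA11 (−1.11 ± 0.30), 2 small membrane arm subunits chosen here after their values were seen. Without CTCF-dRBR replicate 1 NDUFB2 was at −0.85, behind NDUFS6 (−0.96) and NDUFA3 (−0.94).

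At the other end of complex I, NDUFA5 had 115, 115 and 133 CPM in CTCF-WT and 238, 136 and 114 CPM in CTCF-dRBR. This was the highest log2 fold change of all members, 0.35 ± 0.27 (adjusted p = 0.384), with overlapping groups, and without CTCF-dRBR replicate 1 it was 0.04. NDUFS5, the subunit of complex I with the highest level, at a mean of 213 TPM over the 6 libraries, showed a like pattern, with 114, 109 and 117 against 166, 106 and 100 CPM (0.07 ± 0.20, adjusted p = 0.797). A read-through row under the symbol NDUFB8, which spans the gene and its neighbor, had 2.85, 2.81 and 1.92 CPM in CTCF-WT and 0, 1.79 and 4.14 CPM in CTCF-dRBR. The log2 fold change, −1.84 ± 1.56, ranged from −3.33 to 0.13 when 1 library was left out.

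Complex II is built from 4 proteins, 2 catalytic (SDHA with its flavin, SDHB with iron-sulfur clusters) and 2 membrane anchors (SDHC and SDHD). SDHC, at chr1:161284171-161332996 on the plus strand of GRCh37, was at 24.4, 22.2 and 18.6 CPM in CTCF-WT and at 5.85, 10.5 and 10.1 CPM in CTCF-dRBR. Every CTCF-dRBR value was below every CTCF-WT value, and the log2 fold change of −1.32 ± 0.24 had the smallest p of all members (unadjusted p = 0.00134, adjusted p = 0.0991). The groups were also apart in TPM, at 9.33, 10.4 and 13.6 against 6.08, 9.11 and 7.08. SDHC passed the threshold under DESeq2 (adjusted p = 0.000137), in limma-voom without CTCF-dRBR replicate 1 (adjusted p = 0.0333), and in limma-voom after the trend over GC content was removed (adjusted p = 0.0259). Without CTCF-WT replicate 1 the adjusted p was 0.482, with a log2 fold change of −1.24.

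The other 3 subunits of complex II differed little. SDHA was at 160, 162 and 161 CPM in CTCF-WT and at 155, 157 and 169 CPM in CTCF-dRBR, overlapping, with a log2 fold change of −0.01 ± 0.08 (adjusted p = 0.961). SDHB had 79.2, 81.7 and 83.2 against 75.6, 67.0 and 74.4 CPM (−0.17 ± 0.09, adjusted p = 0.251) and SDHD had 106, 116 and 104 against 87.8, 102 and 91.8 CPM (−0.21 ± 0.10, adjusted p = 0.228). Neither SDHB nor SDHD overlapped between the groups, though both ranges lay close. On log2(TPM + 1) the median of the 4 was 0.52, above the 0.40 of all genes, where the main scale gave −0.19 against −0.01. The pseudogene rows SDHAP1, SDHAP2 and SDHAP3 carry near-copies of SDHA, so their reads may be shared with it. SDHAP1, the pseudogene row with the highest mean count among 120 named after a member, held 10.2% of the count of SDHA, with a log2 fold change of −0.27 (adjusted p = 0.413).

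In complex III, 2 of 9 rows were lower at an unadjusted p under 0.05 (12.8% of all genes) and 0 were higher (12.6%). The 2 were UQCRQ and UQCRH. Without CTCF-WT replicate 1 or 2 the count was 0, without CTCF-dRBR replicate 2 it was 1, and it was 5 and 4 without CTCF-dRBR replicates 1 and 3. Over all genes the counts were then 807, 779, 945, 2278 and 3269, against 1801 with all 6 libraries. The median log2 fold change was −0.28 (0.19 on log2(TPM + 1)). UQCRFS1, the Rieske iron-sulfur protein, was at 94.7, 94.9 and 92.6 CPM in CTCF-WT and at 87.8, 89.9 and 83.1 CPM in CTCF-dRBR, a narrow gap without overlap (log2 fold change −0.12 ± 0.08, adjusted p = 0.363). The large core proteins UQCRC1 and UQCRC2, which face the matrix, differed from each other. UQCRC1 had 150, 147 and 123 against 37.3, 95.2 and 120 CPM, without overlap, and a log2 fold change of −0.84 ± 0.40 (adjusted p = 0.224). This was the most negative value of the complex in all 6 libraries but not without CTCF-dRBR replicate 1 (−0.38, with UQCRQ at −0.44) or with the GC trend removed (−0.35, with UQCRQ at −0.69). UQCRC2 had 199, 198 and 219 against 234, 212 and 198 CPM and overlapped (0.06 ± 0.10, adjusted p = 0.689).

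UQCRH, the acidic hinge protein that contacts cytochrome c1, was at 191, 183 and 169 CPM in CTCF-WT and at 156, 137 and 156 CPM in CTCF-dRBR, without overlap (−0.28 ± 0.10, adjusted p = 0.175). UQCRB, which helps form the ubiquinone site, had the highest mean level of all members over the 6 libraries, 395 TPM, which rested on CTCF-dRBR replicate 1 (946 TPM). Without that library the mean was 285 TPM, below the 361 of ATP5B and the 328 of COX6C, and it remained the highest of complex III. It was at 362, 337 and 326 CPM in CTCF-WT and at 720, 265 and 294 CPM in CTCF-dRBR. CTCF-dRBR replicate 1 was above, and replicates 2 and 3 below, all 3 CTCF-WT libraries, so that the log2 fold change was 0.16 ± 0.37 (adjusted p = 0.764) in all 6 libraries and −0.29 without replicate 1. A read-through row under the symbol UQCR11 had 9.67, 10.4 and 14.3 against 8.09, 12.3 and 16.0 CPM (0.07 ± 0.28).

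In complex IV, 7 of 14 rows were lower at an unadjusted p under 0.05 (12.8% of all genes) and 0 higher (12.6%). The median log2 fold change was −0.37 (0.14 on log2(TPM + 1)). The count of 7 became 4 without CTCF-WT replicate 1 and 2 without CTCF-WT replicate 2. Over all genes 1801 of 14044 became 807 of 14008 and 779 of 14022. COX4I1, the subunit through which ATP is thought to regulate the enzyme, was at 231, 207 and 185 CPM in CTCF-WT and at 106, 151 and 168 CPM in CTCF-dRBR (−0.57 ± 0.19, adjusted p = 0.160). COX6B1, which lies on the cytochrome c side, had 160, 157 and 119 against 43.0, 72.2 and 106 CPM (−1.02 ± 0.32, adjusted p = 0.151). Both were without overlap, as was COX6A1, at 157, 163 and 144 against 115, 108 and 134 CPM (−0.38 ± 0.11, adjusted p = 0.148). COX7A2 (−0.35 ± 0.13) and COX7B (−0.18 ± 0.09) also did not overlap. COX8A had the most negative value of the standard subunits of all complexes, −1.52 ± 0.69 (adjusted p = 0.212), yet its 141, 152 and 83.3 CPM in CTCF-WT overlapped with the 11.5, 51.5 and 95.4 CPM of CTCF-dRBR. Without CTCF-dRBR replicate 1 the value was −0.80.

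COX6C, the subunit of complex IV with the highest level, at a mean of 371 TPM, was at 194, 199 and 191 CPM in CTCF-WT and at 256, 171 and 171 CPM in CTCF-dRBR (0.00 ± 0.17, adjusted p = 0.994). As for UQCRB, replicate 1 was above and replicates 2 and 3 were below the CTCF-WT range. NDUFA4, once assigned to complex I and now counted with complex IV, had 82.0, 78.0 and 66.1 against 38.7, 67.4 and 58.6 CPM and overlapped (−0.46 ± 0.21, adjusted p = 0.216). Its paralog NDUFA4L2 was far lower, at 0.60 to 3.21 CPM (−1.09 ± 0.43, adjusted p = 0.186). COX7A2L, which joins complexes III and IV in supercomplexes, had 89.1, 88.2 and 91.7 against 118, 96.3 and 88.5 CPM (0.15 ± 0.13, adjusted p = 0.404). The highest value of the complex belonged to the retrocopy COX6A1P2 (0.22 ± 0.28, adjusted p = 0.579), whose reads may be shared with COX6A1.

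The muscle, lung and testis isoforms of complex IV were at or near 0. COX4I2, COX6A2 and COX7A1 had 0 counts in every library, which allows levels of up to 0.0564 to 0.0999 CPM (3 counts of the library total, counting error only). COX6B2 reached 5 counts, COX7B2 reached 1 and COX8C had 4 to 50 counts. The remaining rows under the filter were the read-through rows under the symbols SDHD (5 to 15 expected counts), NDUFA7 (0 to 31) and NDUFC2-KCTD14 (0), and the retrocopies ATP5EP2 (13 to 33) and ATP5L2 (4 to 12). The isoform used in each pair was thus COX4I1, COX6A1, COX6B1, COX7A2, COX7B and COX8A in both groups.

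In complex V, 9 of 16 rows were lower at an unadjusted p under 0.05 (12.8% of all genes) and 0 higher (12.6%). The median log2 fold change was −0.47 (0.10 on log2(TPM + 1)). The count of 9 became 3 without CTCF-WT replicate 1 and 4 without CTCF-WT replicate 2. Over all genes 1801 of 14044 became 807 of 14008 and 779 of 14022. The F1 head holds the catalytic β subunit ATP5B and the α subunit ATP5A1 in alternation. ATP5B, the most abundant member of complex V at a mean of 366 TPM, was at 844, 848 and 821 CPM in CTCF-WT and at 414, 653 and 697 CPM in CTCF-dRBR, without overlap (−0.55 ± 0.20, adjusted p = 0.177). ATP5A1 was at 767, 789 and 830 against 642, 810 and 768 CPM and overlapped (−0.11 ± 0.11, adjusted p = 0.497). In the γ subunit ATP5C1, the rotor shaft, the value was the highest of the complex, 0.25 ± 0.16 (adjusted p = 0.320), and CTCF-dRBR replicate 1 was highest of the 3. The stalk subunit ATP5F1 (0.15 ± 0.15) was the other with a positive value.

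The c ring of complex V, which turns in the membrane as protons pass, is encoded by 3 genes whose mature proteins are identical. ATP5G1 was at 66.7, 62.2 and 49.1 CPM in CTCF-WT and at 15.3, 29.7 and 35.1 CPM in CTCF-dRBR, without overlap (log2 fold change −1.16 ± 0.29, adjusted p = 0.131). ATP5G2 was at 283, 251 and 185 against 46.2, 119 and 170 CPM, also without overlap, and had the most negative value of the complex (−1.23 ± 0.46, adjusted p = 0.179), though without CTCF-dRBR replicate 1 it was −0.73 and ATP5G1 was lower, at −0.87. ATP5G3 was at 177, 147 and 123 against 48.1, 112 and 128 CPM and overlapped (−0.71 ± 0.36, adjusted p = 0.241). The median of the 3, −1.16, was below that of the 5 F1 subunits, −0.12, and of the 4 stalk subunits, −0.22; no test was made between them, and in all 3 c ring genes CTCF-dRBR replicate 1 was lowest. Without that library the 3 medians were −0.73, −0.31 and −0.23. The membrane accessory subunits ATP5I, ATP5J2 and ATP5L were all lower at an unadjusted p under 0.05, with ATP5L at 194, 179 and 166 against 119, 150 and 140 CPM (−0.40 ± 0.12, adjusted p = 0.150). The read-through row ATP5J2-PTCD1 was at 4.55, 4.17 and 3.30 against 2.06, 2.75 and 3.86 CPM, with overlap (−0.47 ± 0.26, adjusted p = 0.266).

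**Figure D3:**
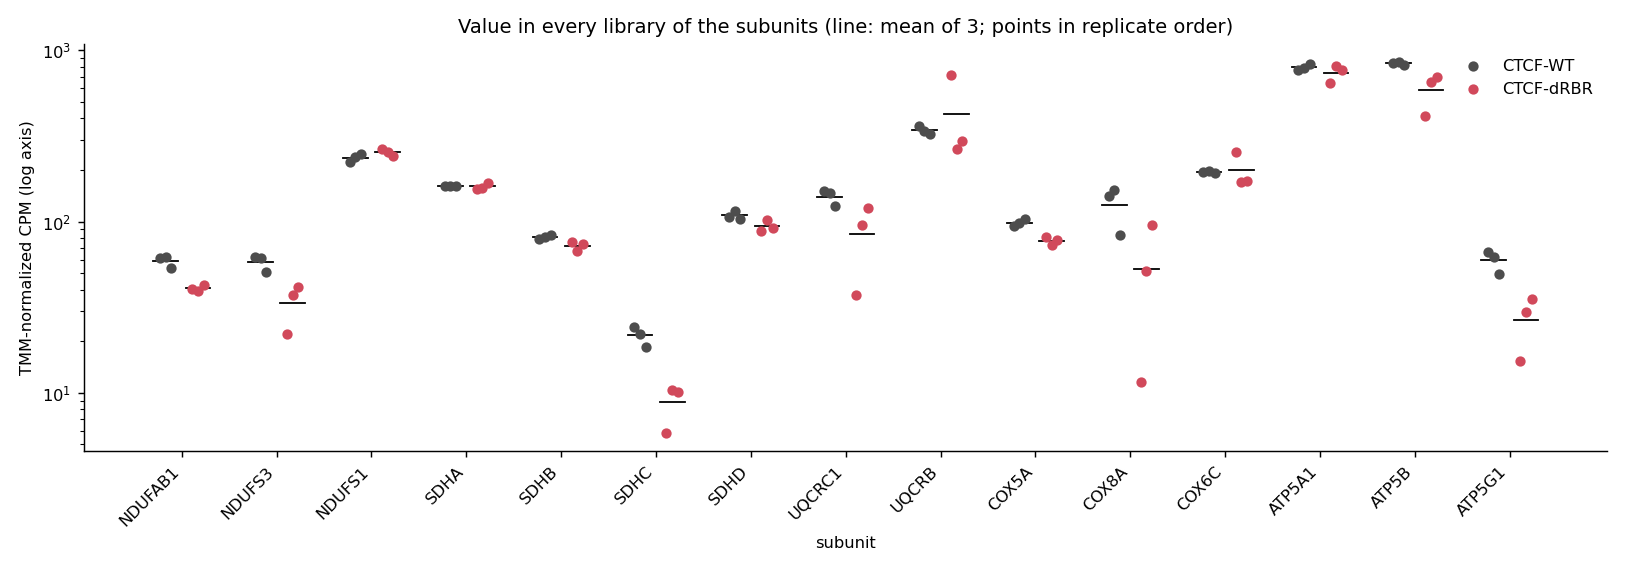
TMM-normalized CPM (log axis) of 15 subunits in each of the 6 libraries, with the mean of each group as a line. SDHC, NDUFAB1, COX5A and ATP5G1 are below CTCF-WT in all 3 CTCF-dRBR libraries, SDHA and NDUFS1 overlap, and the first CTCF-dRBR point is the highest for UQCRB and COX6C and the lowest for COX8A and UQCRC1.

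Levels between genes were compared per length, in TPM. In CTCF-WT the median subunit was at 60.7 TPM in complex I, 54.0 in complex II, 91.2 in complex III, 198 in complex IV and 171 in complex V. The order of the medians in CTCF-dRBR was the same at the top, with 179 TPM for complex IV and 162.5 for complex V, while complex I (62.3) and complex II (77.6) changed places. The mRNA levels of proteins that occur in fixed ratios spread widely. In complex I they ran from 12.0 TPM (NDUFV3) to 171 TPM (NDUFS5) in CTCF-WT, and in complex V from 15.7 TPM (ATP5D) to 344 TPM (ATP5B). In complex II, SDHC was at 11.1 TPM, next to 50.4 for SDHD, 57.6 for SDHA and 64.0 for SDHB. SDHC and the lowest subunits of complexes I and V remained the lowest of their complex in CTCF-dRBR.

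**Figure D4:**
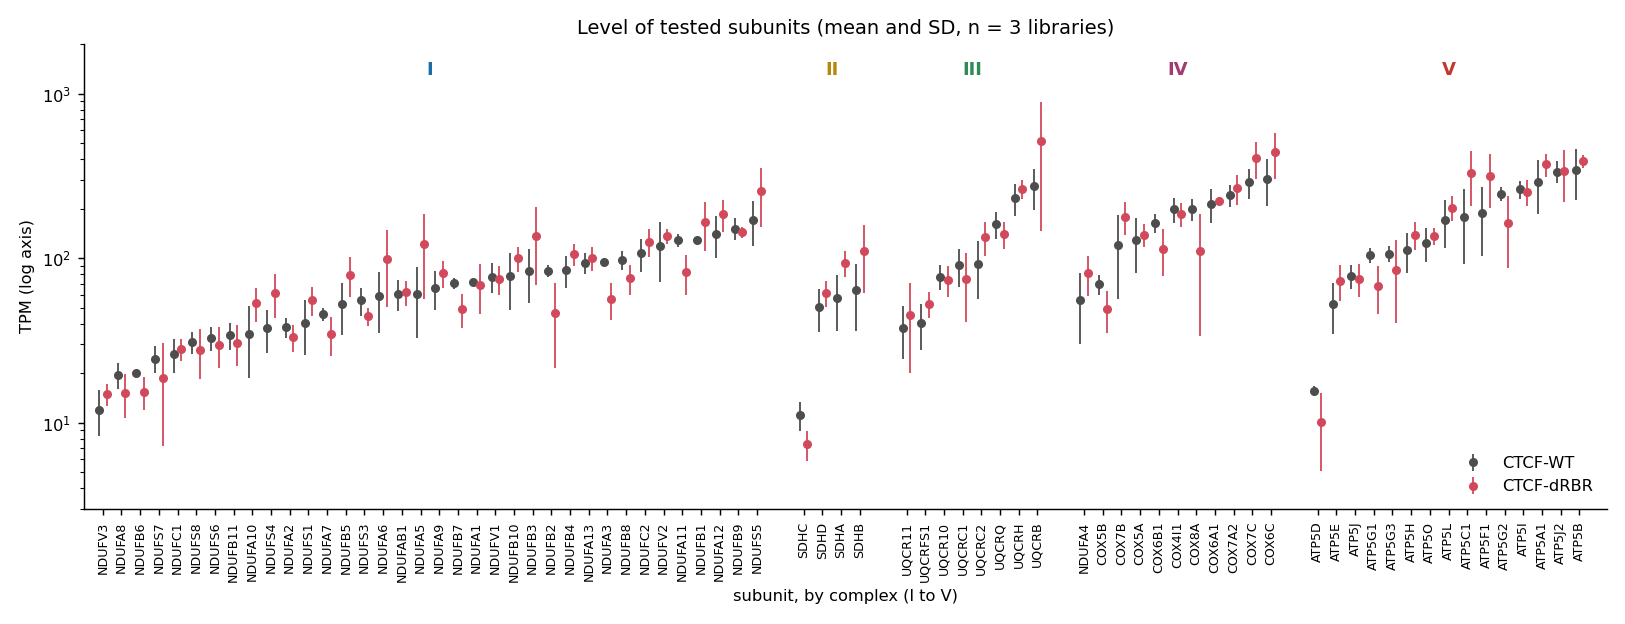
TPM (log axis) of 74 standard subunits in CTCF-WT and CTCF-dRBR (mean and SD, n = 3 libraries), ordered by the CTCF-WT mean within each complex. SDHC (11.1 TPM) and ATP5D (15.7 TPM) sit well below the other subunits of their complexes, and the medians of complexes IV (198 TPM) and V (171 TPM) lie above those of complexes I to III.

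The fold changes of the members followed the GC content of their transcripts, as those of all genes did. Across 82 members with a GC value, Spearman's rho between GC content and log2 fold change was −0.64, and across 13400 genes tested it was −0.69; genes of 1 library share its depth and composition, so this is a description. Among members under 45% GC the median log2 fold change was −0.09, against 0.25 over all genes tested in that range. It was −0.30 against 0.02 between 45% and 50%, −0.64 against −0.20 between 50% and 55%, and −0.84 against −0.58 from 55%. In each range the members' median was below that of all genes. After the GC trend was removed from every library, rho was 0.08 in the members, their median was −0.36 against −0.02 over all genes, and 73 of 82 were negative. Limma-voom then called 10 members at an adjusted p under 0.05, all lower, where 5.91% of all genes were called lower and 4.31% higher. The 10 were COX5A, COX7B, ATP5G1, ATP5J, NDUFAB1, NDUFA3, NDUFA11, NDUFB8, NDUFS3 and SDHC, of which COX7B, ATP5J and NDUFA11 are named here for this call and were chosen after their values were seen, as was COX5A. With 1 library left out as well, 0 members were called without CTCF-WT replicate 1 or 2 or without CTCF-dRBR replicate 2 or 3, and 13 without CTCF-WT replicate 3. Over all genes the fits without members called had 0, 1, 0 and 2 calls, in this order. Without CTCF-WT replicate 3, 3.62% of all genes were called lower.

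**Figure D5:**
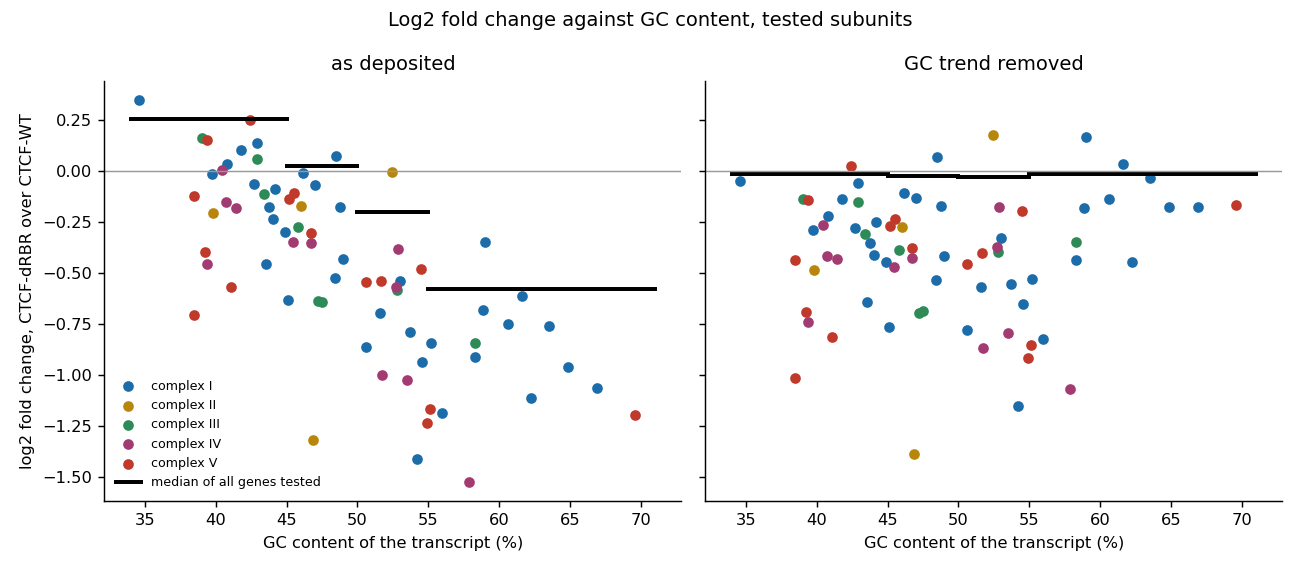
Log2 fold change of 73 standard subunits against GC content of the transcript (%), from the counts as deposited (left) and after the GC trend was removed from each library (right), colored by complex; black lines give the median of all genes tested in each GC range. On the left most points fall with GC and lie below the lines, and on the right most lie below 0, with SDHC lowest at −1.39.

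Of the single CTCF-dRBR libraries, replicate 1 spread the most. Relative to the CTCF-WT mean of log2 CPM, its 82 members without a 0 ranged from −3.40 (COX8A) to 1.08 (UQCRB), with a median of −0.51 and 63 below 0. In replicate 2 the median was −0.39 with 71 below 0, and in replicate 3 it was −0.26 with 79 below 0. Replicate 3 thus had the smallest shift and the largest number of members below the CTCF-WT mean. Below every CTCF-WT library were 61 members in replicate 1, 67 in replicate 2 and 62 in replicate 3. No share of all genes is given for single libraries, so none of these counts can show whether the members are unusual. Across all genes, the deviation of replicate 3 from the gene mean was positively related to GC content (rho 0.52), as in CTCF-WT (0.34 to 0.72), and that of replicates 1 (−0.79) and 2 (−0.43) negatively. In a standard subunit, replicate 1 was the lowest of the 6 libraries in 40 of 75 and the highest in 15.

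Of the 69 members with a negative log2 fold change, 24 were over 1.5 times smaller in size or had the other sign without CTCF-dRBR replicate 1, among them NDUFV1 (−0.44), NDUFS8 (−0.33), COX8A (−0.80) and ATP5G3 (−0.31). Without CTCF-dRBR replicate 1 the members' median was −0.31, and limma-voom called 4 members, all lower (2.37% of all genes, with 1.52% higher): SDHC, ATP5G1, NDUFAB1 and ATP5J2, the last of these named for this call. SDHC, ATP5G1 and NDUFAB1 were the 3 members called by DESeq2, after removal of the GC trend and without this library. With the GC trend removed and the library left out together, 42 members were called, all lower, where 15.0% of all genes were, and all 42 were standard subunits, 17 of complex I, 3 of complex II, 4 of complex III, 7 of complex IV and 11 of complex V. NDUFAB1 then had an adjusted p of 0.0118 and SDHC of 0.00645 (limma-voom).

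Other genes of the pathway, from lists drawn up by role, also had medians below 0 on the main scale, and with the GC trend removed as well except for the complex V assembly factors (0.00). Cytochrome c1 (CYC1), a heme subunit of complex III, had a log2 fold change of −0.84 (unadjusted p = 0.0348, adjusted p = 0.181), and cytochrome c (CYCS) had −0.27 (unadjusted p = 0.0327, adjusted p = 0.177), both without overlap. With the GC trend removed CYC1 was at −0.18 and CYCS at −0.52. With USMG5, C14orf2 and ATPIF1, the highest at 0.04, these formed a list of 5 further subunits and partners, 2 of which were lower at an unadjusted p under 0.05 and 0 higher. Of 50 assembly factors tested, 13 (26.0%) were lower at an unadjusted p under 0.05 and 0 higher, with a median of −0.15. By complex these were 4 of 15, 1 of 4, 3 of 6, 4 of 22 and 1 of 3, for complexes I to V. Of all genes tested, 12.8% were lower and 12.6% higher at that threshold, with a median of −0.01.

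The lowest assembly factor was SCO2, a copper chaperone of complex IV, at −1.12 (adjusted p = 0.205), and the highest was COA5 at 0.26 (adjusted p = 0.252). Within the lists of the other complexes the values ran from FOXRED1 (−0.90) to NDUFAF7 (0.24) for complex I, from SDHAF2 (−0.61) to ACN9 (0.08) for complex II, from C11orf83 (−1.12) to LYRM7 (0.16) for complex III and from ATPAF2 (−0.31) to ATPAF1 (0.17) for complex V. With the GC trend removed, ACN9 (−0.25), LYRM7 (−0.18) and ATPAF2 (0.07) had the opposite sign, ATPAF1 and COA5 were at 0.00 and 0.03, NDUFAF7 was at 0.03, FOXRED1 at −0.51 and C11orf83 at −0.80. None passed an adjusted p of 0.05 by limma-voom. Among 12 transcriptional regulators of the pathway tested, 4 (33.3%) were lower at an unadjusted p under 0.05 and 0 higher. For all genes tested the shares were 12.8% and 12.6%. The regulators ran from ESRRA at −1.33 (adjusted p = 0.188) to GABPB1, a partner of GABPA, at 0.46 (adjusted p = 0.220). With the GC trend removed, ESRRA was at −0.57 and GABPB1 at 0.14. NRF1 was among the 4, at 33.0, 32.0 and 30.5 CPM in CTCF-WT and 22.4, 22.7 and 25.0 CPM in CTCF-dRBR, without overlap (−0.44 ± 0.11, adjusted p = 0.128). PPARGC1A, the coactivator PGC-1α, did not pass the expression filter.

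The 13 mitochondrially encoded subunits had a median standard error of 0.39 for the log2 fold change. Their median log2 fold change was −0.20, with 1 lower and 1 higher at an unadjusted p under 0.05. This was 7.69% each, against 12.8% and 12.6% of all genes tested. The CTCF-dRBR libraries went opposite ways in MT-ND1, MT-ND2, MT-ND4, MT-ND5, MT-CYB, MT-ATP6 and MT-ATP8, named here after their values were seen. In each of these, replicate 1 was above, and replicates 2 and 3 below, all CTCF-WT libraries in CPM. The other mitochondrially encoded subunits did not show this. MT-ND4L was lowest, at −0.74 (adjusted p = 0.147), and MT-ND6, the only one encoded on the light strand, was highest, at 1.37 (adjusted p = 0.134), both without overlap. In TPM, MT-ND6 averaged 121 in CTCF-WT and 466 in CTCF-dRBR, on a scale where the median of all genes was also higher (0.40 on log2(TPM + 1)). In CPM it had 71.8, 68.2 and 85.3 in CTCF-WT and 338, 169 and 129 in CTCF-dRBR, with replicate 1 highest. The deposited counts are labelled as stranded, but how strand was used in counting is not stated. The value of this light-strand gene is therefore uncertain.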

How the data were processed

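Total RNA-seq (RiboErase depletion) of 6 SEM libraries, 3 per group, was analysed from a table of RSEM expected counts per gene and a table of TPM, both deposited by the authors. They trimmed reads with Trim Galore 0.6.3, aligned them with STAR 2.7.9a to GRCh37.p13 (hg19) and counted Gencode 19 genes with RSEM 1.3.1. The methods state paired-end reads and the labels single-end reads. The deposited counts are labelled as stranded, but how strand was used in counting is not stated. The 41 members that overlap a gene on the opposite strand are therefore uncertain. TPM was scaled over all genes, of which protein-coding genes held 30.2% to 63.2%.

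Genes with at least 1 CPM in any library were kept. Expected counts were TMM-normalized and tested with limma-voom (limma 3.58.1, edgeR 4.0.16, R 4.3.3), two-sided, with Benjamini-Hochberg adjustment over all 14044 genes. Alternatives were edgeR's quasi-likelihood test and DESeq2 1.42.0 on rounded counts, quality weights, other scalings and filters, limma on log2(TPM + 1) and log2(TPM + 0.1), a replicate block, leaving out each library, and removal of a loess trend over GC content (95.4% of genes had a value). Scripts were tested on simulated data. Members, gene lists and tests were chosen with earlier results of these data known. Named with values were CTCF, in each complex the member with the highest mean TPM and those with the highest and lowest fold change, the 5 higher and 5 lower members of smallest unadjusted p, the catalytic or core subunits, the isoform sets, the read-through loci, members under the filter and the extremes of each list. One of the members is counted but not reported here singly. Limits given for counts of 0 cover counting error only, and errors are standard errors of the fit or SDs between libraries.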

Additional observations from a re-analysis of the deposited data

How the results depend on the processing

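Directions and counts of the members depended on the scaling and on single libraries. The number of members past an adjusted p of 0.05, 0 by limma-voom, was 19 by DESeq2, 66 with sample quality weights, 10 after removal of the GC trend and 42 when CTCF-dRBR replicate 1 was left out as well. Over all genes the numbers were 0, 1619 and 9583 of 14044, 1369 of 13400 and 3430 of 13118. With alternatives chosen after seeing the data, the number of members was 13 (GC trend removed, without CTCF-WT replicate 3) and 10 (GC and length trends removed). Of all genes, 740 of 13371 and 1305 of 13400 then passed. The number of members lower at an unadjusted p under 0.05, 37, was 63 with quality weights, 60 with the GC trend removed and without CTCF-dRBR replicate 1, 2 on log2(TPM + 1) and 3 on log2(TPM + 0.1). Over all genes 1801 of 14044 became 5250 of 14044, 3021 of 13118, 283 of 14044 and 303 of 14044. The number of members higher, 0, was 6 with quality weights, 2 on each TPM scale, 1 with GC and length trends removed, 1 with the GC trend removed, 1 when CTCF-WT replicate 3 was also left out, and 2 when, in its place, CTCF-dRBR replicate 3 was. Over all genes the number higher, 1768 in the main fit, was 4780, 3765, 3702, 1871, 1871, 1712 and 1896 in this order.

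On log2(TPM + 1) the median of the members was 0.15 and that of complexes I to V was 0.064, 0.52, 0.19, 0.14 and 0.10, and on log2(TPM + 0.1) they were 0.16, 0.065, 0.53, 0.19, 0.14 and 0.12, where all genes had 0.40 and 0.54. Leaving out 1 library gave 0 to 4 members past an adjusted p of 0.05, 17 to 49 lower and 0 to 1 higher at an unadjusted p under 0.05, and a median of −0.54 to −0.31. The count of 17 came without CTCF-WT replicate 1 or replicate 2, and 24 without CTCF-dRBR replicate 2. Over all genes the counts lower were then 807, 779 and 945, against 1801 with all 6 libraries. With the GC trend removed, leaving out CTCF-dRBR replicate 1 gave a median of −0.32 and leaving out CTCF-WT replicate 1 gave −0.31. The fold changes of UQCRB and COX6C were −0.33 and −0.20 with quality weights, and −0.44 and −0.32 with the GC trend removed and without CTCF-dRBR replicate 1. The cause of these changes was not tested.

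Deviations of same-numbered libraries from their group means correlated at −0.34, 0.10 and −0.47, so no pairing by replicate number was seen. With 3 libraries per group the deviations are tied to each other, so these values cannot exclude pairing. With a replicate block 19 members were lower at an unadjusted p under 0.05 and 0 passed the adjusted threshold, with a median of −0.44. Of all genes, 779 of 14044 were then lower and 0 passed. Over the fold changes of single named members, 903 values under the alternatives kept their sign and side of the threshold, 135 changed sign with neither value past it, 76 passed it only under the alternative and 4 changed sign and passed it.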
